A study of Mus musculus with 16 samples.

Results

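The genes described here are 8 members of the Notch pathway: the receptors Notch1 and Notch2, the ligands Dll1, Dll4 and Jag1, the DNA-binding protein Rbpj, and Hes1 and Hes6 of the Hes family. They were chosen by name, with earlier results of these data known. They are 8 of the 49585 genes in the table of read counts, and all 8 passed the filter on low counts that left 12559 genes for testing. They were measured by RNA sequencing in 16 cultures of mouse small intestinal organoids, 4 in each of 4 groups. fl/fl organoids (called WT in the labels) carried loxP-flanked Atg16l1 alleles and no Cre, and ΔIEC organoids (KO, Atg16l1dIEC) carried the same alleles with Cre driven by the villin promoter, which is active in intestinal epithelial cells. Both were grown untreated or with recombinant mouse IL-22 at 10 ng/ml for 24 h, in medium with EGF, Noggin and R-spondin 1 in every group. According to the methods, the mice were on a C57BL/6 background and 8 to 12 weeks old. Each genotype is represented by 2 organoid lines, and each line gave 2 cultures untreated and 2 with IL-22, so the 4 cultures of a group are not 4 independent mice. In the text, cultures 1 and 2 of a group belong to line 1 of that genotype and cultures 3 and 4 to line 2.

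Notch signaling passes between touching cells. A Delta or Jagged ligand on one cell binds a Notch receptor on its neighbor, the receptor is cut by ADAM10 and by γ-secretase, and the freed intracellular part joins RBPJ and Mastermind proteins on DNA to switch on target genes. In the intestinal crypt, the target Hes1 represses Atoh1, the factor that commits a progenitor to the secretory fate (Paneth, goblet, enteroendocrine and tuft cells), so cells that receive the signal stay progenitors or become absorptive enterocytes. Dll1 and Dll4 are the ligands shown by secretory cells, Notch1 and Notch2 are the receptors of crypt progenitors, and Hes6 is a relative of Hes1 that is known to antagonize it rather than to act as a classical Notch target.

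The sequences just before the start sites of Dll4, Dll1 and Hes6 are shown because Dll4 passed the test with IL-22 and Dll1, a ligand that can stand in for it in the crypt, did not, and because Hes6 passed both with IL-22 and between genotypes. Each is 250 bases, 5′ to 3′ on the strand of the gene, from RefSeq (GRCm38.p6), ending 1 base before the RefSeq start, and capitals mark a match to CACGNG, letters that Hes repressors are known to bind. RefSeq gives 2 starts each for Dll1 and Hes6, and the one farther upstream is shown.
Dll4 (chr2:119325534-119325783, plus strand): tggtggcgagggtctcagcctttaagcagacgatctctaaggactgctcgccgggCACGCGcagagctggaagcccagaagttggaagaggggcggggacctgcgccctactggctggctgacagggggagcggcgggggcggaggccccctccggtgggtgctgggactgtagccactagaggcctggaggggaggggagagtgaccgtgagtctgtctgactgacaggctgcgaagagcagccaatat
Dll1 (chr17:15376933-15377182, minus strand): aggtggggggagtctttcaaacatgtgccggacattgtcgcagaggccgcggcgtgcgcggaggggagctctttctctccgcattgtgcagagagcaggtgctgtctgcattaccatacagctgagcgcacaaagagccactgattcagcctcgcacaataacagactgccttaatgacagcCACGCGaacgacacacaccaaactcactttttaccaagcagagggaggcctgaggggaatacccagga
Hes6 (chr1:91414039-91414288, minus strand): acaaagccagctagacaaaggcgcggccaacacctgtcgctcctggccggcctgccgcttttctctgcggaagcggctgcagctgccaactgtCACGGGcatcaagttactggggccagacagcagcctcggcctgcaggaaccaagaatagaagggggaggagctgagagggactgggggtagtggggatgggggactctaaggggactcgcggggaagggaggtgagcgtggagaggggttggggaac
The match lies at bases -195 to -190 from the start of Dll4, at -68 to -63 for Dll1 and at -157 to -152 for Hes6. The RefSeq table holds 10 windows for 7 of the 8 members, and 6 of these 10 had at least 1 match to CACGNG on either strand (both of Dll1 and 1 each of Notch2, Dll4, Jag1 and Hes6), where 23.5% of all 32851 windows of the same length had one. The other window of Hes6 had none. These 10 windows had a GC content of 56% to 72%, and the share over all windows was not matched for GC content. The letters TGGGAA, the core of the site bound by RBPJ, were found in 2 of the 10 windows, both of Rbpj itself, and in 21.6% of all windows. These 2 windows of Rbpj overlap and share a match. The STAT site TTCNNNGAA, searched because IL-22 signals through STAT3, was found in 0 of the 10 windows and in 7.02% of all windows. CACGNG does not overlap either of the other motifs in these windows. A match is a run of letters and not a binding site, and its absence says only that the letters are not in these 250 bases.

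On GRCm38, Notch1 lies on chromosome 2 from 26457903 to 26516663 (minus strand), Notch2 on chromosome 3 from 98013527 to 98150361 (plus), Dll1 on chromosome 17 from 15367354 to 15376872 (minus) and Dll4 on chromosome 2 from 119325784 to 119335962 (plus). Jag1 lies on chromosome 2 from 137081456 to 137116644 (minus), Hes1 on chromosome 16 from 30064384 to 30067796 (plus), Hes6 on chromosome 1 from 91411483 to 91414038 (minus) and Rbpj on chromosome 5 from 53466152 to 53657362 (plus). All are protein-coding genes. The exons of Dll4, Dll1 and Notch1 overlap those of genes on the other strand (Gm14207, A930024N18Rik, and 0610009E02Rik with Gm13568), which had at most 23, 40, 19 and 6 counts in a culture. The strand setting of the counting is not given in the sources used here, so reads of such a pair may not have been told apart.

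Reads counted on genes numbered from 2135000 to 5574860 in a culture. Levels are given as CPM, the count of a gene scaled to a common library size with the TMM factors of edgeR. Atg16l1 itself had a mean of 40.2 CPM in untreated fl/fl and 2.67 CPM in untreated ΔIEC cultures (log2 difference -3.90, adjusted p = 1.27e-06), and 45.0 against 1.84 CPM with IL-22 (-4.51, adjusted p = 2.25e-07). IL-22–treated ΔIEC culture 2 had the highest count of Atg16l1 in its group, at 5.96 CPM. Counts on members ranged from 19 (Dll4, untreated fl/fl culture 3, with an exact 95% Poisson interval of 11.4 to 29.7) to 435 (Hes6), and such intervals cover counting error only. The markers of other tissues were near 0: the 8 stromal markers summed to 0 to 1.87 CPM, the 8 immune markers to 2.83 to 10.8 CPM and the 6 endothelial markers to 3.65 to 11.1 CPM in a culture.

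**Figure D1:**
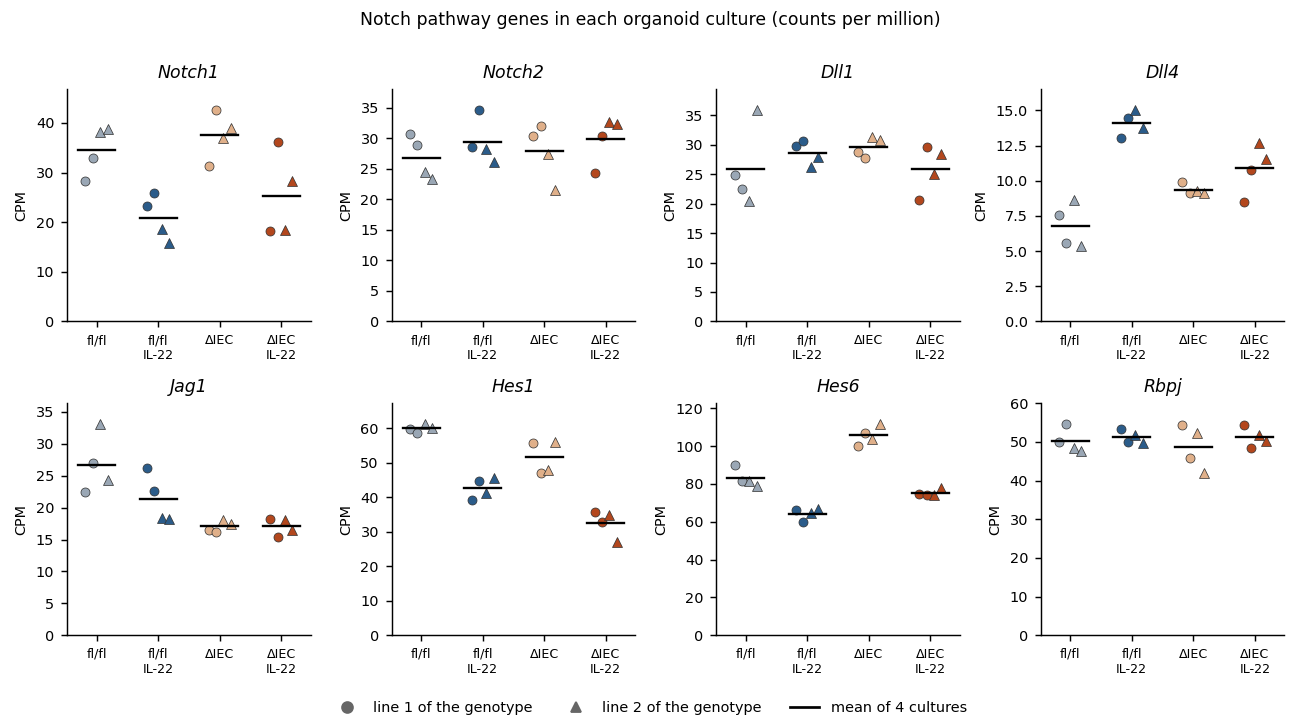
CPM (vertical axes, from 0) of the 8 Notch pathway genes in each of the 16 cultures, by group (horizontal axis), with circles for line 1 and triangles for line 2 of a genotype and a bar at the mean of 4 cultures. Hes1 and Hes6 are lower with IL-22 in both genotypes without overlap, Dll4 is highest in IL-22–treated fl/fl cultures (13.07 to 15.02 CPM), and Jag1 is lowest in both ΔIEC groups.

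To compare genes with each other, CPM were divided by the length of a gene's joined exons in kilobases. In untreated fl/fl organoids the order of the mean levels was Hes6 at 46.0 ± 2.62 CPM per kb (SD, n = 4), Hes1 at 29.4 ± 0.502, Dll1 at 6.14 ± 1.63, Jag1 at 4.59 ± 0.794, Rbpj at 3.94 ± 0.244, Notch2 at 2.49 ± 0.326, Notch1 at 2.43 ± 0.343 and Dll4 at 1.76 ± 0.409. The ranges of neighbors in that order did not overlap for Hes6 and Hes1, for Hes1 and Dll1, and for Rbpj and Notch2, and they overlapped for the other pairs. The Hes genes and Dll1 held the first 3 places in all 4 groups. Dll4 moved from the last place to the place next to Jag1 in IL-22–treated fl/fl organoids, at 3.66 ± 0.221 against 3.67 ± 0.648 CPM per kb. Notch1 took the last place with IL-22 in both genotypes, at 1.47 ± 0.319 CPM per kb in fl/fl and 1.78 ± 0.605 in ΔIEC. The division uses all annotated exons of a gene, which understates genes with rarely used ones, and Rbpj has 12.75 kb of them.

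The effect of IL-22, the effect of the deletion and the difference between both IL-22 effects were tested with edgeR (quasi-likelihood test, all 16 cultures fitted together), and a gene was called at a Benjamini-Hochberg adjusted p under 0.01 among the 12559 genes. With IL-22, 4 of the 8 members changed in fl/fl organoids: Dll4 rose, where 10.6% of all tested genes rose, and Notch1, Hes1 and Hes6 fell, where 10.2% of all tested genes fell. In ΔIEC organoids 2 members changed: none rose (9.83% of all genes) and Hes1 and Hes6 fell (7.65% of all genes). Between the genotypes without IL-22, Hes6 was higher (3.78% of all genes) and Jag1 lower (5.98%) in ΔIEC organoids. With IL-22, no member was higher (9.91% of all genes) and Hes1 was lower in ΔIEC organoids, a share of 1 in 8 beside 9.84% of all genes. No member passed the threshold for the difference of the IL-22 effects, which 0.0159% of all genes (2 genes) did: 1 member, Dll4, had an unadjusted p under 0.05 there in edgeR. DESeq2 and limma-voom each gave 1 member such a p as well, limma-voom called 0, and DESeq2 gave no adjusted p for any member in this comparison. The median log2 fold change of the 8 members was -0.15 and -0.09 with IL-22 in fl/fl and ΔIEC, and 0.09 and -0.07 between genotypes without and with IL-22, beside medians of -0.045, -0.007, -0.020 and 0.007 over all tested genes. The untreated fl/fl cultures enter both the first IL-22 comparison and the first genotype comparison, and each other group is likewise shared by 2 comparisons.

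**Figure D2:**
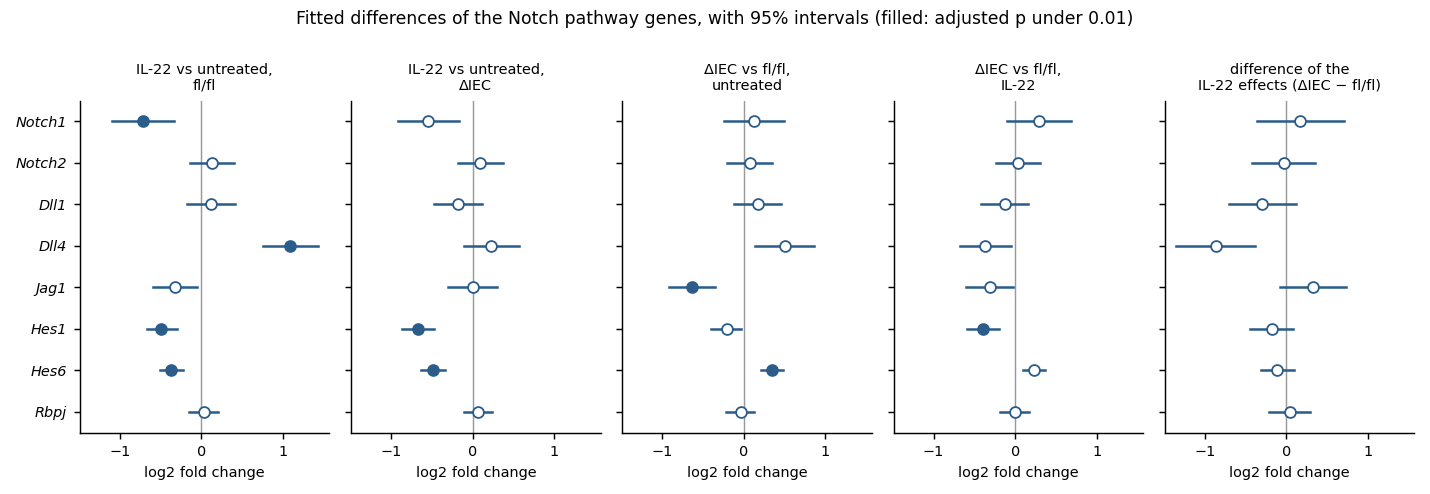
Fitted log2 fold change (horizontal axes) of each gene in 5 comparisons, with lines for 95% intervals and filled points where the adjusted p is under 0.01. Hes1 and Hes6 lie left of 0 with IL-22 in both genotypes, and Dll4 lies at 1.09 in fl/fl and at 0.23 in ΔIEC organoids.

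Notch1, 1 of the receptors of crypt progenitors, was measured at 28.3, 32.9, 38.1 and 38.8 CPM in the untreated fl/fl cultures and at 23.4, 25.9, 18.6 and 15.9 CPM with IL-22. All 4 treated cultures were below all 4 untreated ones. Notch1 fell by 0.72 on the log2 scale (SE 0.195, adjusted p = 0.0077, exact two-sided permutation p = 0.0286, the smallest that 4 against 4 cultures allow). In ΔIEC organoids it was measured at 31.4, 42.6, 37.0 and 39.0 CPM untreated and at 18.2, 36.1, 18.4 and 28.4 CPM with IL-22. There the groups overlapped through culture 2 of the treated group. The log2 fold change was -0.55 (SE 0.192, adjusted p = 0.0395, exact permutation p = 0.0571), so Notch1 missed the threshold in ΔIEC organoids, and the difference between the genotypes' responses was 0.17 (95% interval -0.36 to 0.71, adjusted p = 0.954).

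The Notch1 values differed between organoid lines, a difference that was not tested. In fl/fl line 1 the mean went from 30.6 to 24.7 CPM and in line 2 from 38.4 to 17.2 CPM, log2 differences of -0.30 and -1.13. In the ΔIEC lines the differences were -0.50 and -0.72. Without fl/fl line 2 the fitted change in fl/fl organoids was -0.30 (adjusted p = 0.456). It also missed the threshold without ΔIEC line 2, without untreated fl/fl culture 2, 3 or 4, without IL-22–treated fl/fl culture 1, 3 or 4 and without untreated ΔIEC culture 3, with adjusted p between 0.0101 and 0.0296, and when both cultures of a line were summed (adjusted p = 0.0463). The change in ΔIEC organoids passed it without IL-22–treated ΔIEC culture 2, at -0.76 (adjusted p = 0.00439), and with no filter on low counts, at -0.54 (adjusted p = 0.00228).

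Notch2, the other receptor of crypt progenitors, changed in no comparison. It was measured at 30.7, 28.8, 24.5 and 23.3 CPM in fl/fl cultures without IL-22 and at 28.5, 34.6, 28.2 and 26.1 CPM with it. In ΔIEC cultures it was measured at 30.4, 32.0, 27.3 and 21.6 CPM untreated and 24.3, 30.4, 32.6 and 32.4 CPM with IL-22. Its groups overlapped in all 4 comparisons, and the 95% intervals of the log2 fold changes with IL-22 were -0.14 to 0.40 in fl/fl and -0.18 to 0.37 in ΔIEC organoids. Inside the ΔIEC lines the IL-22 difference was -0.19 in line 1 and 0.41 in line 2. The ratio of Notch1 to Notch2 counts inside a culture was 0.924 to 1.67 in untreated and 0.609 to 0.819 in IL-22–treated fl/fl cultures, which did not overlap, and 1.03 to 1.81 against 0.565 to 1.19 in ΔIEC cultures, which did.

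Dll4, a Delta-like ligand also known from blood vessel sprouts, gave the largest fold change with IL-22 among the 8 genes. It was measured at 7.60, 5.61, 8.61 and 5.35 CPM in the untreated fl/fl cultures and at 13.1, 14.5, 15.02 and 13.8 CPM with IL-22. Every treated culture was above every untreated one, and the log2 fold change was 1.09 (SE 0.173, adjusted p = 7.3e-05, exact permutation p = 0.0286), 2.14-fold. Both fl/fl lines rose by nearly the same amount, 1.01 and 1.02, and the call held in all 28 alternative fits, with adjusted p up to 0.00831. In ΔIEC cultures Dll4 was measured at 9.90, 9.11, 9.25 and 9.14 CPM untreated and at 8.51, 10.8, 12.7 and 11.6 CPM with IL-22. These groups overlapped, and the log2 fold change was 0.23 (95% interval -0.11 to 0.57, adjusted p = 0.359), with 0.01 inside line 1 and 0.38 inside line 2.

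Whether the response of Dll4 differed between genotypes was tested as the interaction. The difference, ΔIEC minus fl/fl, was -0.87 (SE 0.245, 95% interval -1.35 to -0.39) and missed the threshold after adjustment over all genes (adjusted p = 0.355). With the organoid line as a block it was -0.89 with an adjusted p of 0.0822, and over all alternatives the adjusted p lay between 0.0822 and 1. The genotypes also differed in opposite directions before and after treatment without passing the threshold. Untreated ΔIEC cultures were all above the untreated fl/fl cultures, with a log2 difference of 0.50 (SE 0.186, adjusted p = 0.0625). IL-22–treated ΔIEC cultures were all below the treated fl/fl cultures, with -0.37 (SE 0.161, adjusted p = 0.0851).

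Dll4 is also abundant in the vessel wall, and the whole list of 6 endothelial markers summed to 5.62 to 11.1 CPM without and 5.94 to 9.11 CPM with IL-22 in fl/fl cultures. Most of this was Esam, at means of 6.91 CPM untreated and 6.70 CPM with IL-22 in fl/fl and 5.18 and 3.37 CPM in ΔIEC cultures, near the level of Dll4, and it passed in no comparison. Pecam1 had means of 1.4 to 1.57 CPM in the 4 groups and Tek at most 3 counts in a culture, while Cdh5, Kdr and Cldn5 had 0 counts in all 16. The part of such cells in the Dll4 counts was not tested. Gm14207, whose exons share 214 bases with those of Dll4 on the other strand, had at most 23 counts in a culture, and its part in the Dll4 counts was not tested.

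Dll1, the second Delta-like ligand of the crypt, changed in no comparison. In untreated fl/fl cultures it was measured at 24.8, 22.5, 20.4 and 35.8 CPM, and with IL-22 at 29.7, 30.6, 26.3 and 27.9 CPM. In ΔIEC cultures it was measured at 28.8, 27.8, 31.4 and 30.7 CPM untreated and at 20.7, 29.5, 25.1 and 28.4 CPM with IL-22. The untreated fl/fl group was the widest because of culture 4. The log2 fold change with IL-22 was 0.12 (95% interval -0.17 to 0.41) in fl/fl and -0.18 (-0.47 to 0.12) in ΔIEC organoids. The ratio of Dll4 to Dll1 counts inside a culture, which needs no scaling between libraries, was 0.149 to 0.422 in untreated and 0.44 to 0.571 in IL-22–treated fl/fl cultures without overlap. In ΔIEC cultures it was 0.295 to 0.344 untreated and 0.365 to 0.506 with IL-22, again without overlap, so the share of Dll4 in the sum of both ligands was higher in treated cultures of both genotypes.

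**Figure D3:**
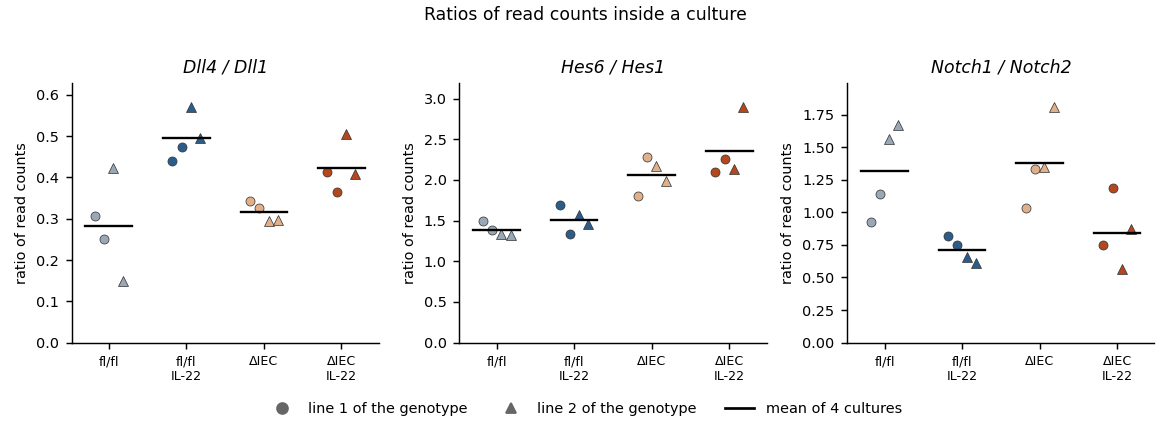
Ratio of the read counts of 2 genes inside a culture (vertical axes, from 0) by group, with circles for line 1, triangles for line 2 and a bar at the mean of 4 cultures. The Hes6 to Hes1 ratio is 1.32 to 1.69 in fl/fl and 1.80 to 2.90 in ΔIEC cultures, and the Dll4 to Dll1 ratio is higher with IL-22 in both genotypes.

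Jag1, a Jagged-type ligand, was lower in ΔIEC organoids. It was measured at 22.5, 27.1, 33.1 and 24.3 CPM in untreated fl/fl and at 16.5, 16.2, 18.1 and 17.4 CPM in untreated ΔIEC cultures. The groups did not overlap, and the log2 difference was -0.64 (SE 0.144, adjusted p = 0.00404, exact permutation p = 0.0286), 1.56-fold. The permutation took cultures as independent, although each genotype has only 2 lines. With IL-22, Jag1 was measured at 26.1, 22.7, 18.4 and 18.3 CPM in fl/fl and at 18.2, 15.3, 18.1 and 16.5 CPM in ΔIEC cultures. All treated ΔIEC cultures were again below all treated fl/fl cultures, by a small margin, and the log2 difference was -0.31 (SE 0.145, adjusted p = 0.103). IL-22 itself gave -0.32 in fl/fl (adjusted p = 0.079) and 0.00 in ΔIEC organoids (95% interval -0.30 to 0.30). Inside the fl/fl lines the IL-22 difference was -0.02 in line 1 and -0.61 in line 2.

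The untreated Jag1 difference kept its direction in every alternative fit, between -0.73 and -0.54. It missed the threshold in limma-voom with a correlation within lines (adjusted p = 0.0249), with the cultures of a line summed (0.0878), without ΔIEC line 1, ΔIEC line 2 or fl/fl line 2 (0.0121 to 0.0803), and without untreated ΔIEC culture 1 or 2 or untreated fl/fl culture 2 or 3 (0.0119 to 0.0168). Genotype and organoid line cannot be told apart beyond the 2 lines of each genotype.

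Rbpj, the DNA-binding partner through which the cleaved receptors act, passed in no comparison. It was measured at 49.97, 54.6, 48.5 and 47.6 CPM in fl/fl cultures without IL-22 and at 53.5, 50.01, 51.8 and 49.7 CPM with it. In ΔIEC cultures it was measured at 54.5, 45.8, 52.3 and 42.0 CPM untreated and 54.3, 48.3, 51.7 and 50.4 CPM with IL-22. The log2 fold changes in the 4 comparisons lay between -0.04 and 0.06, and their 95% intervals all lay between -0.22 and 0.24.

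Hes1, the repressor that stands between Notch receptors and the secretory fate, fell with IL-22 in both genotypes. In fl/fl cultures it was measured at 59.9, 58.7, 61.2 and 59.9 CPM untreated and at 39.2, 44.6, 41.3 and 45.5 CPM with IL-22. The untreated cultures lay close together and above all treated ones. The log2 fold change was -0.49 (SE 0.0937, adjusted p = 0.000515, exact permutation p = 0.0286). In ΔIEC cultures Hes1 was measured at 55.6, 47.0, 47.9 and 56.1 CPM untreated and at 35.6, 32.95, 34.8 and 26.9 CPM with IL-22. No treated culture reached an untreated one, and the log2 fold change was -0.67 (SE 0.0995, adjusted p = 3.69e-05, exact permutation p = 0.0286).

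The fall of Hes1 was of similar size in the 4 lines: -0.50 and -0.48 in the fl/fl and -0.57 and -0.75 in the ΔIEC lines. The difference between the genotypes' responses was -0.18 (95% interval -0.45 to 0.08, adjusted p = 0.834). The call in ΔIEC organoids held in all 28 alternative fits, while that in fl/fl organoids was lost with the cultures of a line summed (adjusted p = 0.0182) and without fl/fl line 1 (0.0269) or line 2 (0.0256). Hes1 was also lower in IL-22–treated ΔIEC than in IL-22–treated fl/fl cultures, without overlap, by a fitted -0.40 (SE 0.0998, adjusted p = 0.00483). That call was lost in 12 of 27 alternative fits, with adjusted p up to 0.0446, among them limma-voom with a correlation within lines (0.0225) and each fit without 1 of the 4 lines (0.0147 to 0.0424). It was also lost without IL-22–treated ΔIEC culture 2 or 4 and without IL-22–treated fl/fl culture 2 or 4. Without IL-22 the log2 difference was -0.21 (SE 0.0934, adjusted p = 0.112), and all untreated ΔIEC cultures were below all untreated fl/fl cultures.

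Hes6, which opposes Hes1, was the most abundant member per length and fell with IL-22 in both genotypes as well. In fl/fl cultures it was measured at 90.0, 81.7, 81.6 and 79.2 CPM untreated and at 66.1, 59.8, 64.8 and 66.5 CPM with IL-22. In ΔIEC cultures it was measured at 100.2, 107.0, 103.7 and 111.7 CPM untreated and at 74.9, 74.4, 74.0 and 78.1 CPM with IL-22. Treated and untreated cultures did not overlap in either genotype. The log2 fold changes were -0.37 (SE 0.0726, adjusted p = 0.000571) in fl/fl and -0.49 (SE 0.0717, adjusted p = 3.5e-05) in ΔIEC organoids, each with an exact permutation p of 0.0286. Inside the lines the differences were -0.44 and -0.29 in fl/fl and -0.47 and -0.50 in ΔIEC, and the difference between genotypes in the response was -0.11 (95% interval -0.31 to 0.09, adjusted p = 0.873).

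Unlike Hes1, Hes6 was higher in ΔIEC organoids. Without IL-22, all ΔIEC cultures were above all fl/fl cultures, and the log2 difference was 0.34 (SE 0.0711, adjusted p = 0.0023, exact permutation p = 0.0286). The permutation again took cultures of the same line as independent. With IL-22, the groups again did not overlap, at 0.23 (SE 0.0732, adjusted p = 0.02, which misses the threshold). The Hes6 to Hes1 count ratio inside a culture was 1.5, 1.39, 1.33 and 1.32 in untreated and 1.69, 1.34, 1.57 and 1.46 in IL-22–treated fl/fl cultures. In ΔIEC cultures it was 1.80, 2.28, 2.17 and 1.99 untreated and 2.10, 2.26, 2.13 and 2.90 with IL-22. All 8 ΔIEC cultures were above all 8 fl/fl cultures in this ratio, while the treated and untreated cultures of a genotype overlapped. The untreated call for Hes6 was lost with the cultures of a line summed (adjusted p = 0.0875), in limma-voom with a correlation within lines (0.0103), without untreated ΔIEC culture 4 (0.0103), and without ΔIEC line 1, ΔIEC line 2 or fl/fl line 2 (0.0194 to 0.0218). The fall with IL-22 was not called without fl/fl line 1 in fl/fl organoids (-0.26, adjusted p = 0.0768), nor with the cultures of a line summed in either genotype (0.0372 in fl/fl and 0.0148 in ΔIEC).

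**Figure D4:**
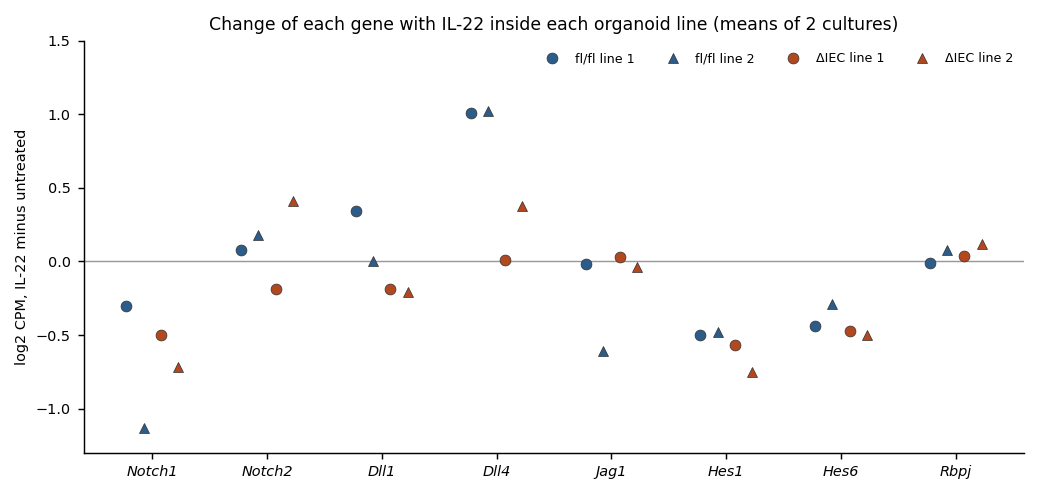
Difference in mean log2 CPM between the 2 IL-22–treated and the 2 untreated cultures of each organoid line (vertical axis) for the 8 genes, in blue for fl/fl and in red for ΔIEC, with circles for line 1 and triangles for line 2. Hes1 and Hes6 lie below 0 in all 4 lines, Dll4 lies near 1 in both fl/fl lines, and the 2 lines of a genotype stand apart for Notch1 and Jag1 in fl/fl and for Notch2 in ΔIEC.

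Some cell type markers moved with these genes. The marker counts below can be read beside the shares of all tested genes past the threshold. With IL-22, 10.6% were up and 10.2% down in fl/fl, and 9.83% up and 7.65% down in ΔIEC. For ΔIEC against fl/fl, 3.78% were up and 5.98% down untreated, and 9.91% up and 9.84% down with IL-22. The marker lists were not tested against these shares. The 10 stem cell markers summed to 2040 to 2510 CPM without and 1190 to 1300 CPM with IL-22 in fl/fl cultures, and to 2640 to 2890 against 1240 to 1600 CPM in ΔIEC cultures, with 3 and 5 of 10 lower past the threshold and none higher. Much of these sums was Slc12a2, at 1333 to 1526 CPM untreated and 646.2 to 777.6 CPM with IL-22 in fl/fl cultures. Lgr5 was not called with IL-22 in either genotype. The 10 enterocyte markers summed to 4240 to 4760 against 1900 to 2290 CPM in fl/fl and 4060 to 4810 against 1860 to 2550 CPM in ΔIEC cultures, with 7 and 5 of 10 lower and none higher. In untreated ΔIEC against fl/fl organoids, 3 of the 10 stem cell markers were higher (Olfm4, Ascl2 and Smoc2) and 1 lower (Rnf43). Olfm4 was at 73.34 to 233.9 CPM in fl/fl and 516.5 to 660.2 CPM in ΔIEC cultures. Lgr5, which was not called, was at 90.87 to 112 CPM in fl/fl and 46.45 to 94.7 CPM in ΔIEC cultures. Of the 10 enterocyte markers, 1 was higher and 1 lower in untreated ΔIEC organoids. With IL-22, 3 stem cell markers were higher in ΔIEC organoids (Olfm4, Ascl2 and Smoc2) and 3 lower (Lgr5, Rnf43 and Tnfrsf19). Of the enterocyte markers, 3 were then higher and none lower. The 9 Paneth markers summed to 5630 to 7980 CPM in untreated fl/fl and 3170 to 4160 CPM in untreated ΔIEC cultures, with 4 of 8 tested lower in ΔIEC. Much of these sums was Defa24, at 2393 to 3794 CPM in fl/fl and 760.6 to 1163 CPM in ΔIEC cultures. Lyz1, also a large part, overlapped at 1747 to 2464 against 1493 to 1895 CPM and was not called. With IL-22, 3 of the 8 rose in each genotype (Mmp7, Pla2g2a and Mptx2) and none fell, and all 9 summed to 7200 to 9610 CPM in fl/fl and 4060 to 4860 CPM in ΔIEC cultures. The 8 goblet markers summed to 2140 to 3360 against 1520 to 2030 CPM in the same untreated groups, with 4 of 8 lower, and with IL-22 2 of the 8 rose and 1 fell in fl/fl and 3 rose and 2 fell in ΔIEC organoids, Muc2 and Agr2 rising in both. Untreated, the 9 enteroendocrine markers summed to 387 to 648 CPM in fl/fl and 231 to 409 CPM in ΔIEC cultures, with 2 of 9 lower. In IL-22–treated ΔIEC against fl/fl organoids, 5 of 8 tested Paneth, 4 of 8 goblet and 4 of 9 enteroendocrine markers were lower and none higher. None of the stem cell, enterocyte, Paneth, goblet and enteroendocrine markers was at 0 in a whole group. The 8 immune markers summed to 4.28 to 5.89 CPM untreated and 8.65 to 10.8 CPM with IL-22 in fl/fl cultures, with Cd3e and Adgre1 at 0 in both groups. In bulk cultures, fewer cells of a type and less RNA per cell cannot be told apart, and the part of the cell makeup in the changes of Notch1, Dll4, Jag1, Hes1 and Hes6 was not tested.

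The other genes of the pathway were taken from a list of 58 genes by role, with the 8 members included, of which 42 passed the filter on low counts. With IL-22, 5 of the 42 rose and 5 fell in fl/fl organoids (10.6% and 10.2% of all tested genes), and 6 rose and 5 fell in ΔIEC organoids (9.83% and 7.65%). Between genotypes, 3 were higher and 5 lower in untreated (3.78% and 5.98% of all genes) and 1 higher and 5 lower in IL-22–treated ΔIEC organoids (9.91% and 9.84%). In limma-voom with a correlation within lines, 2 and 4 genes were called in these genotype comparisons. The median log2 fold change of the 42 was -0.01, 0.01, -0.09 and -0.07 in these 4 comparisons, close to those over all tested genes. None passed for the difference of the IL-22 effects, where edgeR gave 3 genes an unadjusted p under 0.05 (Cir1, Dll4 and Tle3), DESeq2 3 and limma-voom 4. DESeq2 gave an adjusted p for only 7 of its 57 genes there, and it and limma-voom called 0.

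**Figure D5:**
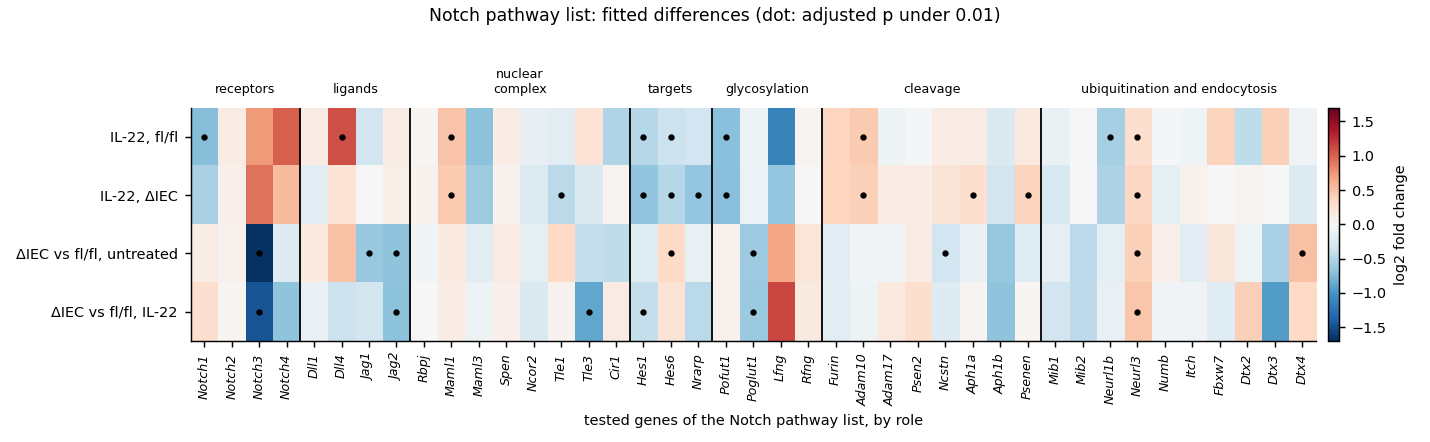
Fitted log2 fold change (color scale, blue lower and red higher) of tested genes of the Notch pathway list (columns, grouped by role) in 4 comparisons (rows), with a dot where the adjusted p is under 0.01. The Hes genes are blue and Adam10 and Neurl3 red with IL-22 in both genotypes, and Notch3 is the darkest blue between genotypes.

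Among the remaining receptors, Notch3 was lower in ΔIEC organoids, with means of 9.12 CPM in fl/fl and 3.00 CPM in ΔIEC cultures untreated (log2 difference -1.68, SE 0.32, adjusted p = 0.00132) and 15.2 against 5.41 CPM with IL-22 (-1.47, SE 0.266, adjusted p = 0.000377). It had only 7 to 11 counts in an untreated ΔIEC culture. These calls were lost in 3 and 2 of 26 alternative fits, the untreated one also without fl/fl line 1 (-1.16, adjusted p = 0.0618). Notch4 passed in no comparison at means of 1.67 to 3.86 CPM. Among the ligands, Jag2 was lower in ΔIEC organoids as Jag1 was, by a log2 difference of -0.68 (SE 0.153, adjusted p = 0.00415) untreated and -0.70 (SE 0.149, adjusted p = 0.00138) with IL-22. The untreated Jag2 call was lost in 9 of 27 alternative fits, among them limma-voom with a correlation within lines (adjusted p = 0.0104). Dll3 was too low to be tested, with at most 13 counts in a culture.

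Of the genes that put sugars on the receptor, 1 of 4 tested fell with IL-22 in each genotype, and of those that cut it, 2 of 9 rose in fl/fl and 4 of 9 in ΔIEC organoids. Of all tested genes, 10.2% fell in fl/fl and 7.65% in ΔIEC organoids, and 10.6% and 9.83% rose. Pofut1, which puts fucose on Notch receptors, fell with a log2 fold change of -0.71 in fl/fl (adjusted p = 2.5e-06) and -0.71 in ΔIEC organoids (adjusted p = 2.86e-06), and these calls held in all 28 alternative fits. Adam10, the protease of the first cut, rose by 0.45 in fl/fl (adjusted p = 0.000283) and 0.41 in ΔIEC organoids (adjusted p = 0.00075). Aph1a and Psenen, subunits of γ-secretase, rose in ΔIEC organoids by 0.29 and 0.38, calls lost in 6 and 15 of 28 alternative fits. The subunit Ncstn was lower in untreated ΔIEC organoids by a log2 difference of -0.32 (adjusted p = 0.00832), a call lost in 17 of 27 alternative fits, with adjusted p up to 0.126 and 0.0208 in limma-voom with a correlation within lines. Poglut1, which puts glucose on Notch receptors, was lower in ΔIEC organoids at -0.62 untreated and -0.63 with IL-22, calls lost in 12 and 7 of 27 alternative fits. Lfng, another sugar transferase of the pathway, had log2 fold changes with IL-22 of -1.14 in fl/fl (adjusted p = 0.0119) and -0.66 in ΔIEC (adjusted p = 0.0858), and Mfng had at most 7 counts in a culture.

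In the nucleus, the coactivator Maml1 rose with IL-22 by 0.48 in fl/fl (adjusted p = 0.000843) and 0.44 in ΔIEC organoids (adjusted p = 0.0019). The corepressor Tle1 fell in ΔIEC organoids, with a log2 fold change of -0.46, and Tle3 was lower in IL-22–treated ΔIEC than fl/fl organoids, at -0.88 (adjusted p = 1.84e-05). Nrarp, a target and feedback inhibitor of Notch, fell with IL-22 in ΔIEC organoids at -0.66 (SE 0.132, adjusted p = 0.000792), with -0.37 inside line 1 and -0.96 inside line 2. Without ΔIEC line 2 the value was -0.40 (adjusted p = 0.122). In fl/fl organoids it had -0.32 (adjusted p = 0.0494), and the difference of the responses was -0.33 (adjusted p = 0.739). The other Hes and Hey genes on the list were too low to be tested: Hes5, Hes7, Hey1 and Heyl had at most 7, 10, 3 and 1 counts in a culture and Hey2 had 0 in all 16.

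Of the genes that act on ligand and receptor uptake, the ubiquitin ligase Neurl3 was higher in all 4 comparisons, by 0.29 and 0.35 with IL-22 in fl/fl and ΔIEC and by 0.41 and 0.47 in ΔIEC against fl/fl organoids without and with IL-22 (adjusted p between 2.91e-05 and 0.00226). All 4 Neurl3 calls were lost with the cultures of a line summed (adjusted p between 0.0191 and 0.0842). The call with IL-22 in fl/fl organoids was lost in 4 of 28 alternative fits, among them those without fl/fl line 1 (adjusted p = 0.0285) or line 2 (0.0636). Neurl1b fell with IL-22 in fl/fl organoids at -0.57 (adjusted p = 0.00625), and Dtx4 was higher in untreated ΔIEC organoids at 0.50 (adjusted p = 0.00583). These calls were lost in 13 of 28 and 12 of 27 alternative fits. Numb, an inhibitor of Notch receptors, passed in no comparison, with log2 fold changes between -0.16 and 0.09.

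Atoh1, the secretory master factor that Hes1 represses, did not pass the threshold with IL-22 in either genotype, at -0.19 in fl/fl (adjusted p = 0.367) and -0.12 in ΔIEC organoids (adjusted p = 0.663). It was lower in ΔIEC organoids, with a mean of 12.9 against 21.9 CPM untreated (log2 difference -0.76, SE 0.161, adjusted p = 0.00267) and 11.7 against 18.8 CPM with IL-22 (-0.69, SE 0.162, adjusted p = 0.00299). Each of these calls was lost in 6 of 27 alternative fits, among them limma-voom with a correlation within lines (adjusted p = 0.0143 and 0.0144). With IL-22, Hes1 and Atoh1 were both lower in ΔIEC than in fl/fl organoids. Of 13 tested secretory factors, 4 rose and 1 fell with IL-22 in fl/fl organoids, where 10.6% of all tested genes rose and 10.2% fell. Xbp1, a factor of secretory cells and of the unfolded protein response, rose by 1.32 (adjusted p = 6.7e-10), Klf4 by 1.20, Spdef by 0.73 and Foxa1 by 0.69, while Foxa2 had a log2 fold change of -1.05. The calls of Spdef and Foxa2 were lost in 10 and 11 of 28 alternative fits, and without fl/fl line 2 their values were 0.59 (adjusted p = 0.171) and -0.68 (adjusted p = 0.216). The Foxa1 call was lost in 2 of 28, among them the fit without fl/fl line 1, at 0.44 (adjusted p = 0.129). In ΔIEC organoids 2 of the 13 rose, Xbp1 by 1.22 and Klf4 by 0.85, and none fell (9.83% and 7.65% of all genes). Spdef, the goblet and Paneth cell factor, was lower in IL-22–treated ΔIEC than fl/fl organoids at -0.94 (adjusted p = 0.00147).

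Of the 8 absorptive factors, all tested, 2 rose with IL-22 in each genotype, where 10.6% of all tested genes rose in fl/fl and 9.83% in ΔIEC organoids. Elf3 rose in both, by 0.94 in fl/fl and 1.04 in ΔIEC organoids, Hnf4a rose in fl/fl organoids by 0.31, and Prdm1 rose in ΔIEC organoids by 1.61 (SE 0.291, adjusted p = 0.000297). Prdm1 had only 3 to 12 counts in an untreated ΔIEC culture. Its call was lost in 3 of 27 alternative fits, among them those without ΔIEC line 1 (adjusted p = 0.0106) or line 2 (0.0221). The Hnf4a call was lost in 3 of 28, among them those without fl/fl line 1 (adjusted p = 0.0115) or line 2 (0.0153). Between genotypes, Cdx1 was higher in ΔIEC organoids by 0.46 untreated and 0.77 with IL-22, Elf3 was lower untreated at -0.36 and Cdx2 lower with IL-22 at -0.31. The untreated Elf3 call (adjusted p = 0.00273) was lost in 7 of 27 alternative fits, and the Cdx2 call (adjusted p = 0.00341) in 8 of 27. The untreated Cdx1 call was lost in 3 of 27. No factor of either list passed the threshold for the difference of the IL-22 effects.

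The genes whose log2 CPM followed a member most closely over the 16 cultures are given as a description, since the cultures share 4 groups and 4 lines. For Hes1 these were Dynll2, Pxylp1 and Rragd, each with a Pearson r of 0.949, and with 0.346, 0.668 and 0.467 once group means were taken off. For Hes6 they were Acot1 (0.938), Zfp523 (0.931) and Sorcs2 (0.930), with 0.365, 0.266 and 0.022 without the group means, so this likeness lay mostly between groups. For Dll4 they were Siah2 (0.910), Dusp8 (0.899) and Hipk1 (0.885), with 0.840, 0.580 and 0.692 without the group means. For Notch1 they were Rpl11, Pycrl and Rps20 (0.887 to 0.890), of which Rpl11 and Rps20 encode ribosomal proteins, and for Jag1 Zranb1, Rnf13 and Phkb (0.863 to 0.884). Notch2 was closest to Trappc4, Enpp1 and Ubr4 (0.799 to 0.818), Dll1 to Exoc7, Foxp4 and Pitx1 (0.733 to 0.782), and Rbpj to Gm47350, Ube2w and Ndufaf8 (0.725 to 0.842). Among the members themselves, r was highest for Notch1 and Hes6 (0.68) and lowest for Dll4 with Notch1 and with Hes1 (-0.59 each), and these 3 values were -0.20, -0.00 and -0.04 without the group means.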

How the data were processed

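RNA of 16 organoid cultures was sequenced on a HiSeq3000. Reads were trimmed with cutadapt, aligned with TopHat2 to mm10 (GRCm38) and counted per Ensembl gene with HTSeq, and the authors deposited the raw read counts. Versions, annotation release and the strand setting of the counting are not given in the sources used here. Of all reads listed, 36.3% to 38.3% fell on 1 gene, 38.0% to 40.1% on none and 21.5% to 24.2% at several places, and only the first entered library sizes and tests.

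IDs were matched without version to GENCODE M21 and given a symbol for 49326 of 49585 genes (99.5%). Counts were analysed with edgeR 4.0.16 in R 4.3.3 (filterByExpr, TMM, a mean for each of the 4 groups, quasi-likelihood test, Benjamini-Hochberg adjustment, adjusted p under 0.01). Each SE was obtained from the F statistic, as the size of the log2 fold change over √F. The exact permutation tests were two-sided on log2 CPM with a prior count of 2, and the 32 of them were not adjusted. They shuffled cultures freely and left the organoid lines out of account, so they do not measure the spread between lines. Culture numbers come from the organoid line named in the labels. The lines pair untreated and treated cultures: deviations from group means correlated at r = 0.26 to 0.44 (fl/fl) and 0.06 to 0.32 (ΔIEC) within a line, and at -0.43 to -0.22 and -0.35 to -0.08 across lines. The p-values measure the spread among cultures of 2 lines per genotype. No pair of cultures agreed within sampling noise.

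Alternatives were DESeq2 1.42.0, RLE factors, no filter, at least 10 counts in every culture, the compared groups only, the line as a block, summed cultures, limma-voom (limma 3.58.1) with a correlation within lines (0.261), a threshold of 0.05, and leaving out each culture or line. The code was tested on simulated data. Members and gene lists were chosen with earlier results of these data known. Named were all members, list genes called at least once, a few further pathway genes called or not, and the 3 genes most correlated with each member. 1 tested gene of the pathway list enters its counts and is not reported here.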

Additional observations from a re-analysis of the deposited data

How the results depend on the processing

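With the cultures of a line summed, which leaves 2 samples a group, 1 member was called with IL-22 in fl/fl, 1 in ΔIEC, and 0 between genotypes without or with IL-22, and of the pathway list 2, 2, 0 and 0 genes. In limma-voom with a correlation within lines, 0 members were called between genotypes without and 0 with IL-22, and 2 pathway genes without IL-22 (the cause was not tested). With IL-22, 0 members differed between genotypes with no filter on low counts and 0 in a fit of the compared groups only. At an adjusted p under 0.05, 18 pathway genes were called with IL-22 in fl/fl and 17 in ΔIEC, and with IL-22 14 pathway genes and 2 members between genotypes. Over the 20 fits without 1 culture or line, members called ranged from 2 to 4 with IL-22 in fl/fl, 2 to 3 in ΔIEC, 0 to 2 between genotypes untreated and 0 to 1 with IL-22, and pathway genes from 3 to 13, 5 to 12, 1 to 9 and 3 to 7, with 0 to 0 for the interaction of both lists. With the organoid line as a replicate block, 4 and 2 members and 14 and 15 pathway genes were called with IL-22, no member's call changed, and 0 were called for the interaction. Genotypes could not be compared with this block, since each line has 1 genotype. Beside Jag1 with IL-22 in ΔIEC (0.00, from -0.04 to 0.06) and Rbpj between genotypes with IL-22 (-0.00, from -0.03 to 0.02), directions turned only in fits without 1 culture or line, for differences that passed in no fit. Their ranges were -0.24 to 0.57 (interaction) and -0.04 to 0.29 (untreated genotypes) for Notch1. For Notch2 they were -0.21 to 0.41 (IL-22 in ΔIEC), -0.35 to 0.28 (interaction), -0.14 to 0.25 (untreated genotypes) and -0.12 to 0.14 (genotypes with IL-22). For Dll1 the range was -0.09 to 0.36 (IL-22 in fl/fl), and for Rbpj -0.02 to 0.11 and -0.01 to 0.13 (IL-22 in fl/fl and ΔIEC), -0.05 to 0.10 (interaction) and -0.11 to 0.02 (untreated genotypes). Members had between 19 (Dll4) and 435 (Hes6) counts in a culture.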
